A study of Mus musculus with 3 samples.

Results

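The ER chaperones and disulfide isomerases described here are 10 mouse genes, taken from a list of symbols. The list was chosen with earlier results of these data known, so the members' shares below are not independent of those results. They are Hspa5, Hsp90b1, Hyou1, Calr, Canx, P4hb, Pdia3, Pdia4, Pdia6 and Sdf2l1. All 10 were matched by symbol among the 21951 protein-coding genes of the GENCODE M21 annotation. The data were ChIP-seq peak lists from mouse cortices at embryonic stage E13.5. NF-Y-ChIP used an antibody against NF-YC, a subunit of the transcription factor NF-Y, and gave 733 peaks. H3K4me3-ChIP used an antibody against histone H3 trimethylated at lysine 4, a mark of active promoters, and gave 18816 peaks. Each antibody had 1 library, and the third library, Input, had no peak list of its own. All 3 libraries came from whole isolated cortex, in which progenitors and neurons are mixed, and the labels name no treatment. The study's methods name B6 embryos for cortices taken at this stage for western blotting, and for ChIP the strain, the genotype and the number of embryos are not given in the sources used here.

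A gene was counted as having a peak where the peak overlapped the gene or the 5 kb upstream of it. Fold enrichment, as the authors' peak caller wrote it, compares the summit of a peak with the background around it and is a ratio. Ranks are by fold enrichment, with 1 as the strongest peak of a list. The transcription start site (TSS) is that of the principal transcript of each gene, and positions upstream of it are negative. With 1 library per antibody there was no replicate error, no test was possible, and the read depth behind the peaks is unknown. The interval beside a share is its Wilson 95% confidence interval and covers counting error only.

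The endoplasmic reticulum (ER) folds secreted and membrane proteins with the help of Hsp70 and Hsp90 chaperones, of lectin chaperones that hold glycoproteins, and of protein disulfide isomerases that make and rearrange disulfide bonds. When unfolded proteins gather in the ER, the unfolded protein response raises the transcription of these genes. A known route runs through the ER stress response element, in which NF-Y holds a CCAAT sequence (a CCAAT box) and the factor ATF6 holds a CCACG sequence 9 bases away. Neurons and neural progenitors depend on this folding machinery for the many membrane and secreted proteins they make.

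The promoter sequences that carry the result are those of the 4 members with 4 or more CCAAT boxes, all of which had an NF-Y-ChIP peak. Each line runs 5′ to 3′ on the gene's strand, from 190 bases before the TSS through the first 30 transcribed bases, in the GRCm38 reference. Capitals mark CCAAT boxes, which read ATTGG where the box lies on the other strand, and the CCACG (or CGTGG) of a complete ER stress response element.
Hspa5, chr2:34771780-34771999, + strand: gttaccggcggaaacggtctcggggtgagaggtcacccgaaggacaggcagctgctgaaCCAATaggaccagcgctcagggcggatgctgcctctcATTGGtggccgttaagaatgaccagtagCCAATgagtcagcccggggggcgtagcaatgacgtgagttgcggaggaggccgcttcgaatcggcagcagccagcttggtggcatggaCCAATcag
Hsp90b1, chr10:86705480-86705699, - strand: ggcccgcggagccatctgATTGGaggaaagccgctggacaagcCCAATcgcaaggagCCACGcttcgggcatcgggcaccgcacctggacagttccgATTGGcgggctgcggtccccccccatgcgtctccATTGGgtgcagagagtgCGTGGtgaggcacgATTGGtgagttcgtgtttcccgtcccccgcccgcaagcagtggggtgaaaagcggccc
Pdia4, chr6:47813401-47813620, - strand: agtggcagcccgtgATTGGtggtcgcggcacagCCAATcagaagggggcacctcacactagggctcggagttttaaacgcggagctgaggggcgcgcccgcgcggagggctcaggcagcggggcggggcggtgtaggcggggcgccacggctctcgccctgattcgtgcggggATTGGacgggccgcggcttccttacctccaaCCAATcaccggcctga
Sdf2l1, chr16:17132354-17132573, - strand: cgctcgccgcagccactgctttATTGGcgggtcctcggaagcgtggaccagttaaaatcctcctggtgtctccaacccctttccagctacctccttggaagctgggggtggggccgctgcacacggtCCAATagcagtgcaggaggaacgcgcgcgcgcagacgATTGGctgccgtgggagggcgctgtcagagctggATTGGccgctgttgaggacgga

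For contrast, Canx and Pdia6 carried CCAAT boxes and a complete element but had no NF-Y-ChIP peak. Their lines are written in the same way.
Canx, chr11:50325644-50325863, - strand: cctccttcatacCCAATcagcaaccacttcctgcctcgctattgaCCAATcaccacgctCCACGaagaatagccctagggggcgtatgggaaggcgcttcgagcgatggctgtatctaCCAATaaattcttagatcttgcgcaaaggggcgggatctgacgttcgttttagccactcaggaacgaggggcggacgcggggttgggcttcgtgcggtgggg
Pdia6, chr12:17266355-17266574, + strand: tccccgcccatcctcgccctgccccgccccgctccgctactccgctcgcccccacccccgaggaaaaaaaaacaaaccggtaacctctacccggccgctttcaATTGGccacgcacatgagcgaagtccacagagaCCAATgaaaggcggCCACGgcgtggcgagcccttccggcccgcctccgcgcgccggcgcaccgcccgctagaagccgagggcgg

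NF-Y-ChIP peaks were found at 5 of the 10 members (50%, interval 23.7 to 76.3%), namely Hspa5, Hsp90b1, P4hb, Pdia4 and Sdf2l1. By the same rule, 3.69% of all protein-coding genes (810 of 21951) had an NF-Y-ChIP peak, and 5.60% of those that also had an H3K4me3-ChIP peak (803 of 14352), called marked genes below. The other 5 members, Hyou1, Calr, Canx, Pdia3 and Pdia6, had none. Each of the 5 members had a single NF-Y-ChIP peak, and its summit lay from 164 bp upstream to 150 bp downstream of the TSS.

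Among the Hsp70 and Hsp90 chaperones, Hspa5 had the strongest peak of the members. Hspa5 encodes BiP, the main Hsp70 of the ER and the protein that keeps the stress sensors inactive. Its peak (chr2:34771773-34772117) had a fold enrichment of 12.4 and ranked 79 of 733. The summit lay 15 bp downstream of the principal TSS, in the 5′ UTR of the first exon of that transcript. RefSeq (GRCm38.p6) places the start of Hspa5 120 bp downstream of that TSS, and the same summit lay 105 bp upstream of that start. Hsp90b1 encodes Grp94, the Hsp90 of the ER. Its peak (chr10:86705473-86705747) had a fold enrichment of 8.24, ranked 215, and had its summit 85 bp upstream of the TSS. From the start that RefSeq gives, the summit was 150 bp upstream. Hyou1, a large Hsp70-like protein that exchanges the nucleotide of BiP, had no NF-Y-ChIP peak, and the nearest one on its chromosome lay 1514455 bp away, closest to Rnf214.

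The peak of Hsp90b1 was shared. The TSS of Ttc41 lies 302 bp upstream of that of Hsp90b1 on the opposite strand, so that the rule gave the peak to both genes and to the microRNA gene Gm25745. The summit was nearer to Hsp90b1. The peak of Sdf2l1 was also within 5 kb of the pseudogene Gm6440. The peaks of Hspa5, P4hb and Pdia4 belonged to no other gene by the rule.

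Both lectin chaperones, Calr (calreticulin, soluble in the ER lumen) and Canx (calnexin, its membrane-bound relative), were without an NF-Y-ChIP peak. The nearest peak to Canx (chr11:50292285-50292487, fold enrichment 7.83) lay 1474 bp beyond its 3′ end, which the rule does not cover, and the closest TSS to it was that of Maml1. The nearest peak to Calr lay 774980 bp from the gene, closest to Rfx1.

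The disulfide isomerases were divided. Pdia4, an isomerase with several thioredoxin-like domains that is found with BiP, had a peak (chr6:47813282-47813757) with a fold enrichment of 11.6 and rank 91, and its summit lay 164 bp upstream of the TSS. The same summit was 82 bp upstream of the RefSeq start. P4hb, the prototype isomerase PDI, had the weakest peak of the members (chr11:120572937-120573262), with a fold enrichment of 3.71 and rank 708 of 733. Its summit was 150 bp downstream of the TSS, within the 5′ UTR of the first exon. The peak of P4hb had a −log10 q-value of 1.16, which corresponds to q = 0.0689, and it was the only member peak with q above 0.05. Pdia3, the isomerase that works with calnexin and calreticulin, and Pdia6 had no peak. The nearest peak to Pdia3 had a fold enrichment of 14.2 but lay 10440 bp beyond the gene, closest to Serf2, and the nearest to Pdia6 lay 4132748 bp away, closest to Ywhaq.

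Sdf2l1, a small ER protein that works with BiP and its J-domain partners, had a peak (chr16:17132312-17132559) with a fold enrichment of 4.17 and rank 673, and its summit lay 70 bp upstream of the TSS. The −log10 q-values were 23.2 for Hspa5, 17.0 for Pdia4, 8.66 for Hsp90b1 and 2.47 for Sdf2l1. The member peaks thus fell into 3 above the median fold enrichment of the list, which was 6.75 with quartiles of 5.32 and 8.64, and 2 below the lower quartile. The median over the 5 members was 8.24 (range 3.71 to 12.4). Member peaks were 248 to 476 bp wide, all wider than the median of the list, 224 bp.

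**Figure D1:**
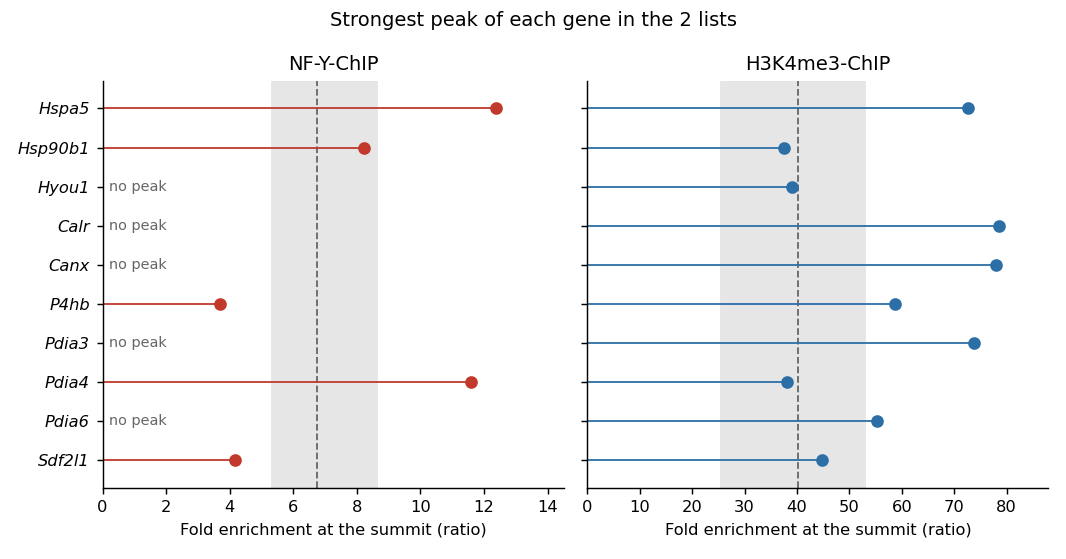
Fold enrichment at the summit (ratio, linear axes) of the strongest NF-Y-ChIP peak (left) and H3K4me3-ChIP peak (right) of each of the 10 genes, 1 library per antibody. The dashed line and grey band are the median and quartiles of all NF-Y-ChIP peaks (left) and of the strongest peaks of all marked genes (right), and the 5 genes with an NF-Y-ChIP peak run from 3.71 to 12.4 while all 10 have an H3K4me3-ChIP peak.

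CCAAT was then searched on both strands of the GRCm38 sequence around the summits and in the promoters. All 5 member summits had a CCAAT box within 50 bp, as did 88.1% of all NF-Y-ChIP peaks (646 of 733). The centre of the nearest box lay 6 bp from the summit at Hsp90b1, 5 bp at P4hb and 9 bp at Hspa5, Pdia4 and Sdf2l1. The median over the 646 peaks was 12 bp, with quartiles of 6 and 19 bp. Each member summit had 2 boxes within 50 bp. Over the whole peak, 6 boxes were found at Pdia4, 5 at Hspa5 and at Hsp90b1, 4 at Sdf2l1 and 3 at P4hb. The weakest peak, that of P4hb, held the fewest boxes, and its summit was as close to a box as the others.

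The summit of P4hb lay downstream of the start and outside the promoter window, so the 30 bases around it are shown here, from 135 to 164 bp downstream of the TSS, with the box in capitals.
P4hb summit, chr11:120573089-120573118, - strand: cgcgcgcgcgcgccgtggCCAATcccaggc

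In the promoter window, from 250 bp upstream to 50 bp downstream of the TSS, every member had at least 1 CCAAT box. Hsp90b1 had 5 boxes, Hspa5, Pdia4 and Sdf2l1 had 4 each, Canx had 3, Hyou1, Calr and Pdia6 had 2 each, and P4hb and Pdia3 had 1 each. At least 2 boxes were thus present in 8 of the 10 members, against 12.3% of all protein-coding promoters (2689 of 21951). At least 1 box was present in 38.5% of them. Of the 28 boxes of the members, 25 were upstream of the TSS and 19 lay between 200 and 50 bp upstream. The sequence read CCAAT on the gene's strand in 16 boxes and ATTGG in 12.

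Neighbouring boxes were often about 30 bp apart. Measured from centre to centre in the promoter windows, the 18 spacings had a median of 34 bp (range 17 to 140 bp), and 10 of them were from 20 to 40 bp. Members without an NF-Y-ChIP peak are included. Within 100 bp of all NF-Y-ChIP summits, the 752 spacings had a median of 37 bp with quartiles of 30 and 51 bp, and 48.1% were from 20 to 40 bp. That window is narrower and holds called peaks only, so the 2 sets are not like for like. At Hsp90b1, the 5 boxes stood 25, 54, 34 and 31 bp apart, and the summit fell next to the middle one. At Hspa5, 3 boxes between 129 and 64 bp upstream were 37 and 28 bp apart, and a second group of 2 boxes, at 24 and 57 bp downstream of the principal TSS, was 33 bp apart. The 2 groups were 88 bp apart. The box at 57 bp is outside the promoter window, so its spacing is not among the 18. The NF-Y-ChIP summit of Hspa5 lay at the downstream group, 9 bp from the box at 24 bp. At Pdia4, the summit lay between 2 boxes in opposite orientation that were 19 bp apart, and the next boxes downstream followed after 140 and 31 bp. At Sdf2l1, the boxes were 105, 37 and 34 bp apart, and the summit was beside the second. In the members without a peak, the boxes were 33 bp apart at Pdia6, 33 and 73 bp at Canx, 17 bp at Calr and 101 bp at Hyou1, and Pdia3 had a single box.

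**Figure D2:**
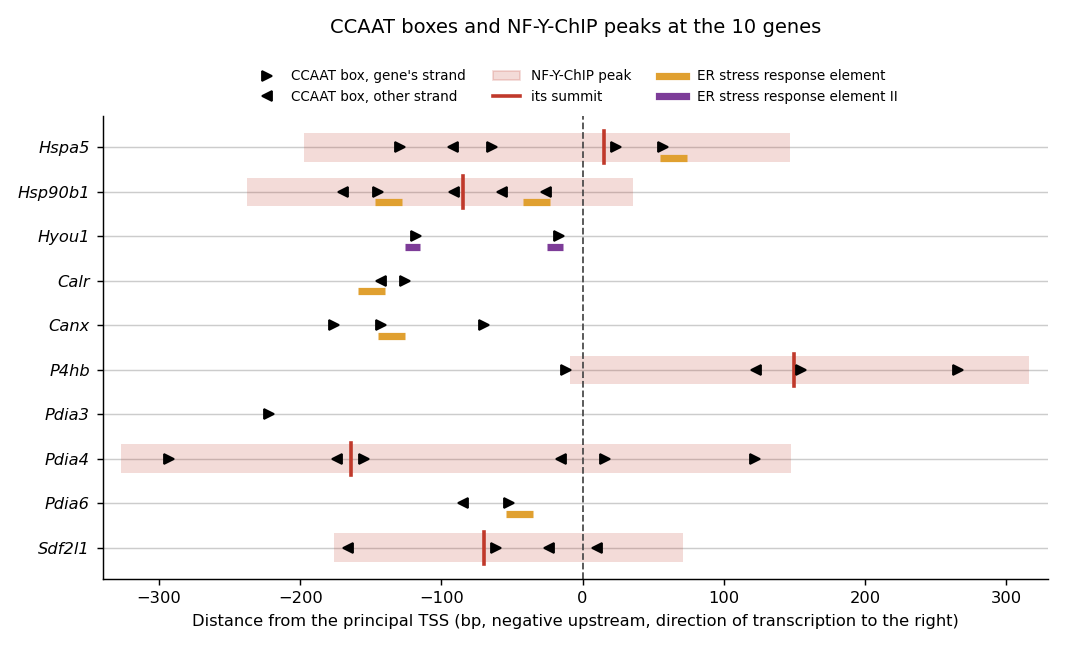
Map of the 10 genes by distance from the principal TSS (bp, linear axis, transcription to the right), with CCAAT boxes as arrowheads in their orientation, NF-Y-ChIP peaks as shaded bars, their summits as red lines, and ER stress response elements as short bars. At Hsp90b1, Pdia4, Sdf2l1, Hspa5 and P4hb the summit stands within 9 bp of the centre of a box, and the 5 other genes have boxes but no peak.

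Outside the 5 letters, NF-Y is known to favour purines before CCAAT and C or G followed by a purine after it. This full context was present at 9 of the 28 boxes of the members (32.1%, interval 17.9 to 50.7%) and at 30.4% of the 8207 boxes in promoters of marked genes. Members with an NF-Y-ChIP peak had it at 5 of 18 boxes, and members without at 4 of 10. At the box nearest to the summit, it was present at Hspa5 and Pdia4, the members with the 2 strongest peaks, and not at Hsp90b1, P4hb and Sdf2l1. Of the 646 peaks of the list with a box near the summit, 57.9% had the full context at the nearest one. This comparison was chosen after the positions of the boxes were seen.

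A complete ER stress response element, searched as CCAAT, any 9 bases and CCACG on both strands, was present in the promoter window of 4 members, against 0.123% of all protein-coding promoters (27 of 21951). Hsp90b1 had 2 elements, and Calr, Canx and Pdia6 had 1 each. A further element of Hspa5 lay from 55 to 73 bp downstream of the principal TSS, just beyond the window, and 65 bp upstream of the start that RefSeq gives. Each element overlaps the CCAAT box with which it begins. The elements are written here from the CCAAT end, with CCAAT and CCACG in capitals.
Hspa5, chr2:34772025-34772043: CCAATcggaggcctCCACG
Hsp90b1 distal, chr10:86705638-86705656: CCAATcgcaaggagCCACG
Hsp90b1 proximal, chr10:86705533-86705551: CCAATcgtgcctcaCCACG
Calr, chr8:84847075-84847093: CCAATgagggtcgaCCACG
Canx, chr11:50325800-50325818: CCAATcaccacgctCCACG
Pdia6, chr12:17266491-17266509: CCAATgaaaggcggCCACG

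The presence of the element and the presence of an NF-Y-ChIP peak did not coincide at the members. Of the 5 genes with an element, Hspa5 and Hsp90b1 had a peak, while Calr, Canx and Pdia6 had none. At Hsp90b1, the elements flanked the summit on both sides, with their centres 53 bp upstream and 52 bp downstream of it. At Hspa5, the centre of the element lay 49 bp downstream of the summit. The 9 bases between the parts held 6 or 7 G or C in all 6 elements. Conversely, Pdia4, Sdf2l1 and P4hb had a peak without a complete element. At Pdia4, the box 10 bp upstream of the summit was followed, on its own strand, by CCACT in the place of CCACG. Allowing 1 mismatch to CCACG added Pdia4 to the members with an element in the promoter window, at 1.19% of all promoters, and allowing 2 added all the others except Pdia3, at 6.45% of all promoters. Among all marked genes, 17 had a complete element in the promoter window, and 5 of these had an NF-Y-ChIP peak (29.4%, interval 13.3 to 53.1%). The 17 include the members Hsp90b1, Calr, Canx and Pdia6, and the 5 are Hsp90b1, Ttc41, Derl3, Dnajc3 and Hnrnpa3, so that the peak shared by Hsp90b1 and Ttc41 is counted with both genes.

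Hyou1 differed from the others in the kind of element. It had no complete ER stress response element, but it had 2 copies of the ER stress response element II, in which ATTGG and CCACG are separated by a single base. This arrangement was present in the promoters of 14 of the 21951 protein-coding genes (0.0638%), and in no other member. Both copies of Hyou1 overlapped its CCAAT boxes, from 126 to 116 bp and from 25 to 15 bp upstream of the TSS, and both lie within the H3K4me3-ChIP peak. Overlapping the distal copy, Hyou1 also had TGACGTGG, the core of the element bound by ATF6 and XBP1 in the unfolded protein response, which was present in 0.711% of all promoters. Both copies of the element II are shown with ATTGG and CCACG in capitals.
Hyou1 distal, chr9:44379364-44379374: ATTGGgCCACG
Hyou1 proximal, chr9:44379465-44379475: ATTGGtCCACG

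The other promoter motifs were as follows. The GC box GGGCGG was present in 9 of the 10 members, all but Sdf2l1, and in 63.2% of the promoters of marked genes. TATAAA was present only at Calr, 36 bp downstream of the principal TSS, and in 7.28% of those promoters. The cyclic AMP response element TGACGTCA was present in no member and in 3.30% of those promoters. A missing match says only that these letters are not in the window. The GC content of the member promoters had a median of 66.2% (range 60.0 to 74.7%), against a median of 60.7% with quartiles of 54.3 and 67.3% in promoters of marked genes.

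The number of CCAAT boxes went with the presence of an NF-Y-ChIP peak over the whole set of marked genes. A peak was present at 2.01% of these genes with no box, 5.52% with 1 box, 16.5% with 2 boxes, 26.8% with 3 boxes and 50.2% with 4 or more (106 of 211, interval 43.5 to 56.9%). The members followed the same order in part. All 4 members with 4 or more boxes had a peak, and none of the 4 members with 2 or 3 boxes had one. Of the members with 1 box in the window, P4hb had a peak, which lay at boxes outside the window, and Pdia3 had none. A read depth that is too low to call a peak cannot be told apart from absence of NF-Y at Hyou1, Calr, Canx, Pdia3 and Pdia6.

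**Figure D3:**
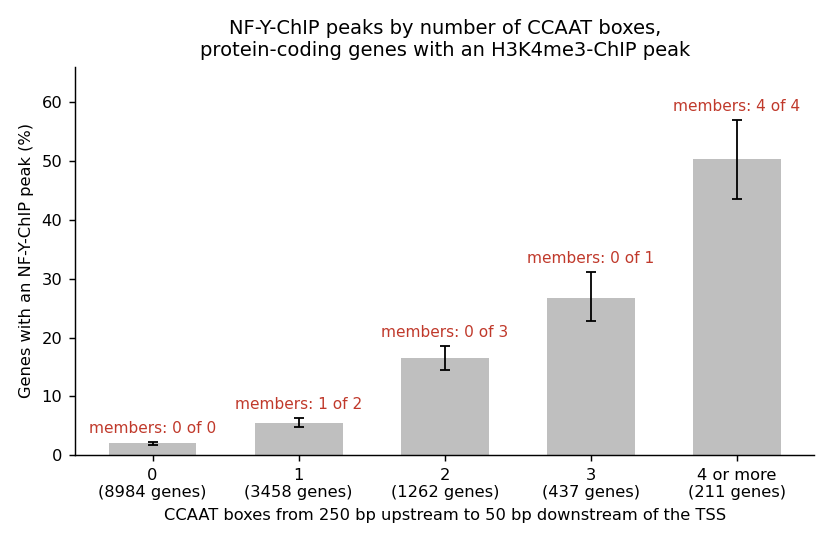
Share of marked genes (protein-coding, with an H3K4me3-ChIP peak by the rule) that also had an NF-Y-ChIP peak (%, bars with Wilson 95% intervals), by number of CCAAT boxes in the promoter window, with the number of genes under each bar. The share is 2.01% with no box and 50.2% with 4 or more, and the red text gives how many of the members in each class have an NF-Y-ChIP peak.

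H3K4me3-ChIP peaks were found at all 10 members (100%, interval 72.2 to 100%), against 65.4% of all protein-coding genes (14352 of 21951). All 5 NF-Y-ChIP peaks of the members overlapped an H3K4me3-ChIP peak. The strongest peak of each member had a median fold enrichment of 57.0 (range 37.5 to 78.5). The median over all marked genes was 40.1, with quartiles of 25.5 and 53.0, so that 7 members were above the median and 6 above the upper quartile.

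The lectin chaperones had the highest H3K4me3-ChIP values, with a fold enrichment of 78.5 (rank 150 of 18816) at Calr and 77.9 (rank 170) at Canx. Pdia3 with 73.8 (rank 351) and Hspa5 with 72.7 (rank 423) were next. P4hb had 58.8 (rank 1982), Pdia6 had 55.3 (rank 2576) and Sdf2l1 had 44.7 (rank 4955). Hyou1 with 39.1 (rank 6456), Pdia4 with 38.2 (rank 6684) and Hsp90b1 with 37.5 (rank 6836) were slightly below the median of all genes with a peak. The order of the members by H3K4me3-ChIP was not their order by NF-Y-ChIP, as Pdia4 and Hsp90b1, which came next after Hspa5 by NF-Y-ChIP, had the lowest H3K4me3-ChIP values. The median H3K4me3-ChIP fold enrichment was 44.7 (range 37.5 to 72.7) over the 5 members with an NF-Y-ChIP peak and 73.8 (range 39.1 to 78.5) over the 5 without. The ranges overlapped, and the difference was not tested because the genes are not replicates of a condition.

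The H3K4me3-ChIP peaks covered the start of every member and had their summits on the transcribed side. The strongest summits lay 179 to 589 bp downstream of the TSS (median 266 bp), against a median of 203 bp with quartiles of 114 and 329 bp over all genes with a summit within 1 kb. In the principal transcripts, the summit was in an intron at 6 members (Hsp90b1, Hyou1, Calr, Canx, Pdia4 and Pdia6), in a coding exon at P4hb, Pdia3 and Sdf2l1, and in the UTR at Hspa5. The peaks were 1499 to 2945 bp wide, and all 10 were wider than the median of 1397 bp over genes with a peak. The widest was that of Hsp90b1, which also covers the start of Ttc41. The H3K4me3-ChIP peak of Pdia3 is likewise shared with another start, as the TSS of Catsper2, on the opposite strand, lies 17 bp downstream of that of Pdia3. At the 5 members with both peaks, the H3K4me3-ChIP summit was 249 to 442 bp downstream of the NF-Y-ChIP summit. The median distance over 621 genes with both was 255 bp, with quartiles of 172 and 393 bp.

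Calr was the only member with 2 H3K4me3-ChIP peaks. The second (chr8:84847073-84847580, fold enrichment 26.4, rank 9694) lay upstream. By the rule, both peaks also belonged to 1700122E12Rik. A stretch of 90 bp, from 138 to 49 bp upstream of the TSS, separated the peaks. The CCAAT box centred 126 bp upstream lay in this stretch. The box centred 143 bp upstream and the ER stress response element that begins with it lay at the end of the upstream peak. No NF-Y-ChIP peak was called there. At the other 9 members, a single H3K4me3-ChIP peak ran over the CCAAT boxes and the TSS.

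**Figure D4:**
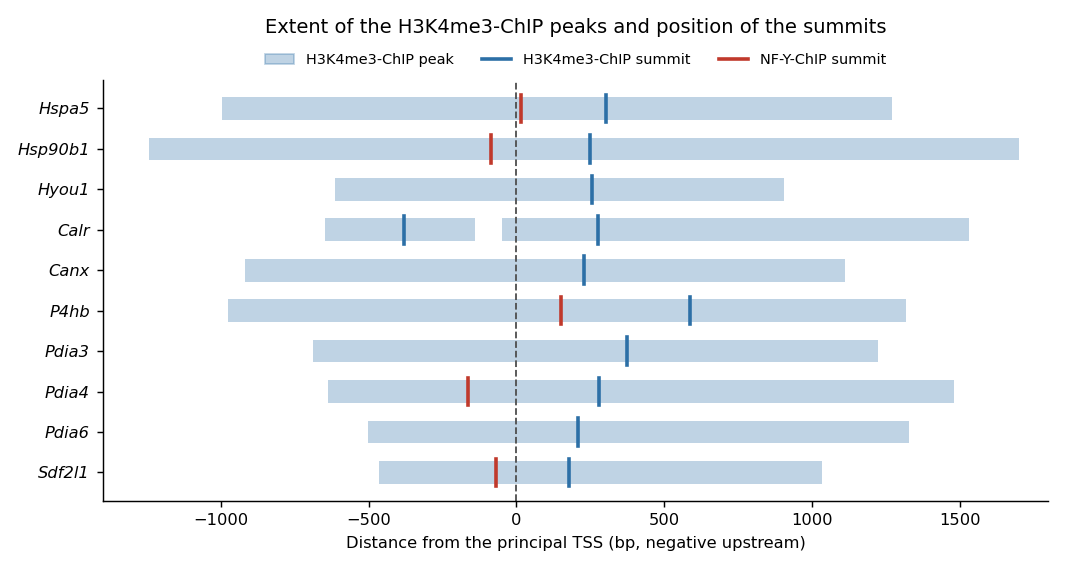
Extent of the H3K4me3-ChIP peaks (blue bars), their summits (blue lines) and the NF-Y-ChIP summits (red lines) by distance from the principal TSS (bp, linear axis) at the 10 genes. Every gene has its strongest H3K4me3-ChIP summit downstream of the TSS, from 179 bp at Sdf2l1 to 589 bp at P4hb, and Calr alone has a second peak upstream.

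Related genes were compared by the same counts, in lists also chosen with earlier results of these data known. Among all protein-coding genes, 65.4% had an H3K4me3-ChIP peak, 3.69% had an NF-Y-ChIP peak and 12.3% had at least 2 CCAAT boxes. Of the marked genes, 5.60% had an NF-Y-ChIP peak. Among 18 other genes of the disulfide isomerase family and its oxidases, 15 had an H3K4me3-ChIP peak and 5 had at least 2 CCAAT boxes. An NF-Y-ChIP peak was present at 1 of them (5.56%, interval 0.988 to 25.8%). That gene was Txndc16, which encodes a thioredoxin-domain protein of the ER, with a fold enrichment of 8.99, rank 170 and a summit 65 bp upstream of the TSS (chr14:45219345-45219785). Txndc16 had 3 boxes, and an H3K4me3-ChIP fold enrichment of 82.5. Among 20 other genes of ER folding, such as glycoprotein folding enzymes and prolyl isomerases, all 20 had an H3K4me3-ChIP peak, 6 had at least 2 boxes and none had an NF-Y-ChIP peak (interval 0 to 16.1%). Among 12 cytosolic and mitochondrial relatives of the members, such as Hspa8, Hsp90aa1, Hsp90ab1 and Txn1, all had an H3K4me3-ChIP peak, 1 had at least 2 boxes and none had an NF-Y-ChIP peak (interval 0 to 24.2%). The NF-Y-ChIP intervals of all 3 lists include both 3.69% and 5.60%, so these counts do not set the lists apart from other genes. Complete ER stress response elements were present in Ero1lb and Creld2 of these lists, and in no relative. Tmx2 was the only gene of the 3 lists with 4 boxes, and it had no NF-Y-ChIP peak. The relatives given as examples, Ero1lb, Creld2, Tmx2, Catsper2 and 1700122E12Rik were named after their values were seen.

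The tissue was checked with marker genes. All 11 cortex markers used, among them Emx1, Pax6, Tbr1 and Tubb3, had an H3K4me3-ChIP peak, with fold enrichments from 4.61 to 50.6. Of 12 markers of other tissues and cells, 10 had none, and Cldn5 and Ins2 had peaks with fold enrichments of 9.38 and 7.83. Both values were above that of Neurod6, the weakest cortex marker used, with 4.61.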

How the data were processed

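ChIP-seq libraries of input, NF-Y-ChIP and H3K4me3-ChIP, 1 each, were made from E13.5 mouse cortices. Per the labels and the study's methods, Trimmomatic was used for trimming, Bowtie2 2.2.8 for alignment to mm10 (GRCm38) and MACS2 2.1.2 for peak calling. The authors set a threshold of p < 0.001 for the NF-Y-ChIP list and of q < 0.05 for the H3K4me3-ChIP list. The study used an input as its negative control, but whether MACS2 was run against it is not given in the sources used here. The deposited fold enrichment is a ratio over local background, the deposited −log10 values are those of p-values and q-values, and the deposited score follows them. The scores and thresholds told the 2 lists apart.

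Genes were taken from GENCODE M21. A further marker gene of the cortex, beside the 11 used, is not reported here. A gene had a peak if the peak overlapped it or its 5 kb upstream, as in the study. Motifs were searched on both strands of GRCm38, and RefSeq starts were given for 9 of the 10 members. The members and gene lists were chosen with earlier results of these data known. Genes named were the members, genes of the other ER lists and relatives with an NF-Y-ChIP peak, genes sharing a member's peak, the nearest peaks of members without one, and genes with an ER stress response element near an NF-Y-ChIP summit. Alternatives varied the reach, peaks, windows, TSS and motif. The search functions were tested on simulated data and gave the right answer in 1000 of 1000 cases each. Sequences without an element were cleared of CCAAT by the same search, so those cases could not fail. All simulated peaks lay upstream of the gene, so a peak inside a gene was not tried. Python 3.11.15, NumPy 2.4.6, pandas 2.3.3, SciPy 1.17.1, pysam 0.24.0 and matplotlib 3.10.9 were used.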

Additional observations from a re-analysis of the deposited data

How the results depend on the processing

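The counts of 10 members with an H3K4me3-ChIP peak and of 5 member summits with a CCAAT box were the same in every alternative run. The 8 members with at least 2 boxes became 7 in the window from 150 bp upstream to the TSS, which lost Pdia4, and 9 with the wider window or any annotated TSS, which added Pdia3. With RefSeq starts the count was again 8, with Pdia3 in and without Hyou1, for which no RefSeq start was used here. The 5 members with an NF-Y-ChIP peak became 3 (Hspa5, Hsp90b1 and Pdia4) with the stronger 50% of the list by fold enrichment and 4 with q < 0.05, where P4hb was lost. The share of protein-coding genes with an NF-Y-ChIP peak, 3.69%, became 4.03% with 10 kb upstream, 3.17% with summits within 1 kb of a TSS, 1.94% with the stronger 50% of the list, 5.60% among genes with an H3K4me3-ChIP peak and 1.88% among all annotated genes. The 4 members with an ER stress response element became 3 to 5 with other windows, starts and spacings and with 1 mismatch, and 9 with 2 mismatches, an alternative chosen after seeing the data. Hspa5 was added with the wider window, with any annotated TSS and with the RefSeq start. No paired analysis was possible because each antibody had 1 library. The lists hold no read counts, so absence of a peak may also be a matter of depth.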

Other observations

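An ER stress response element within 100 bp of the summit was present at 7 of the 733 NF-Y-ChIP peaks (0.955%), of which 2 belonged to members, Hspa5 and Hsp90b1. The other 5 were nearest to Derl3, Hnrnpa3, Foxk1, Xbp1 and Dnajc3. Derl3 encodes a derlin of ER-associated degradation, and its peak had a fold enrichment of 7.30 (rank 306). Xbp1 encodes a transcription factor of the unfolded protein response, with 4.64 (rank 630), and Dnajc3 encodes a J-domain co-chaperone of BiP, with 3.94 (rank 690). Hnrnpa3, an RNA-binding protein, had 6.50 (rank 383). Foxk1, a forkhead transcription factor, had 5.57 (rank 505), with the summit 1191 bp upstream of the nearest TSS, and its peak was the only one of the 7 without an overlapping H3K4me3-ChIP peak. The peaks of Hspa5 and Hsp90b1 had the highest fold enrichments of the 7, and the median was 6.50.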
